A study of Mus musculus with 16 samples.

Results

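The 35 genes described here encode proteins of G2 and mitosis, from the cyclins that start mitosis to the motors and scaffolds of the spindle and the furrow proteins that end it. They were the rows of the deposited gene-level table whose symbol was on a list, and all 35 were found among its 46348 genes. The list was chosen with earlier results of these data known. Its counts beside those of all genes are thus not an independent test. All 35 had enough counts to be tested, among 15494 genes in all. RNA came from 2 libraries in each of 8 groups of MEC1 cells, a line established from mouse epicardium. The cells received PRMT1 siRNA together with p53 siRNA, p53 siRNA alone, PRMT1 siRNA alone, or control siRNA, and each of these was profiled with TGF-beta and without it. The siRNA doses, the TGF-beta dose and the times are not given in the sources used here. The series calls the 2 libraries of a group biological replicates without saying whether they came from separate cultures, so p-values measure the spread between these libraries, which may be technical. The title names a PRMT1, Mdm4 and p53 pathway in epicardial invasion and cell fate, and the comparisons below ask what each siRNA and TGF-beta did to the mitotic genes. These are bulk RNA samples, in which a smaller share of cells in G2 and mitosis and less RNA per such cell cannot be told apart.

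As background, cells make the RNA of mitotic genes in a wave that begins late in S phase and peaks in G2 and mitosis. In quiescent or arrested cells the DREAM complex holds these genes down, and in cycling cells B-MYB (Mybl2) and FOXM1 switch them on. DREAM and its activating counterparts reach many of them through a short promoter element, the cell cycle genes homology region, with the letters TTTGAA or a close variant, often downstream of CCAAT boxes that bind NF-Y. p53 lowers many of them indirectly, by raising the Cdk inhibitor p21 (Cdkn1a). TGF-beta arrests many epithelial cells in G1, while epicardial cells also answer it by leaving the epithelial state.

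The promoters of these genes share short elements, which the choice of the 35 genes did not use. RefSeq windows of 300 bases on GRCm38.p6, from 250 bases before to 50 bases after the annotated start, matched 30 of the 35 genes in 32 windows, Ect2 and Prc1 having 2 overlapping windows each. Aurkb, Ccna2, Cdc25c, Kif20a and Tpx2 were not matched. The letters CCAAT, or ATTGG on the other strand, stood at least once in 26 of the 32 windows (81.2%), against 37.4% of all 32851 windows. They stood at least 2 times in 18 windows (56.2%, against 11.7%). TTTGAA, or TTCAAA on the other strand, stood in 25 windows (78.1%, against 17.9%). These include the windows of Kif2c and Kif4, which lie wholly inside the span given for the gene with the counts. The Kif2c window ends at 117179022, while the gene, on the minus strand, reaches 117182639. TTCGAA, which reads the same on both strands, stood in 3 windows (9.38%, against 1.56%), and TTTAAA, likewise, in 9 (28.1%, against 13.2%). Both CCAAT and TTTGAA stood in 22 windows (68.8%, against 6.95%). No CCAAT match overlapped a TTTGAA match in these windows, while in Ube2c a CCAAT and an ATTGG match share bases. Only the windows of Nuf2 and Nusap1 held none of the 4 elements (6.25%, against 45.1% of all windows). A match describes the letters and is not a measured site.

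6 windows are printed 5′ to 3′ on the gene's own strand, with CCAAT or ATTGG and TTTGAA or TTCAAA in capitals. Aurka and Kif23 had some of the largest changes below, Cdk1 and Mki67 hold several elements each, and Nuf2 and Nusap1 hold none.
Aurka, chr2:172370521-172370820, minus strand: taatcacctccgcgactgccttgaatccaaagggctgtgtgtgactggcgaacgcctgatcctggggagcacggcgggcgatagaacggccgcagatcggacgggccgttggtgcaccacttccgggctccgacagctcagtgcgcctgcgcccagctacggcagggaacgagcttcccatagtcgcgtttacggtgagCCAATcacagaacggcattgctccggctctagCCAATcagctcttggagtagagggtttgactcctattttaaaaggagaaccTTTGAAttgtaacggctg
Kif23, chr9:61946750-61947049, minus strand: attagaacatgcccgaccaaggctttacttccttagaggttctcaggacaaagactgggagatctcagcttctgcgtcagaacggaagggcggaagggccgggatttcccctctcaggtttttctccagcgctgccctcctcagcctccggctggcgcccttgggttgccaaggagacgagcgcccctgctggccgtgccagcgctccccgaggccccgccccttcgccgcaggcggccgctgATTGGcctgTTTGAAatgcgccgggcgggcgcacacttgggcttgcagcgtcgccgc
Cdk1, chr10:69352863-69353162, minus strand: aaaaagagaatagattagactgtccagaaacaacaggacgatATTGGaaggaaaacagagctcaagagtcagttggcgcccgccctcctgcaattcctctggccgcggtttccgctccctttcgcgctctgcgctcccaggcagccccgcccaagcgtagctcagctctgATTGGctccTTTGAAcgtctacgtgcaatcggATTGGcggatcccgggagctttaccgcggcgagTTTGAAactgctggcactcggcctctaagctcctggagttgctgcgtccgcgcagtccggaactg
Mki67, chr7:135716330-135716629, minus strand: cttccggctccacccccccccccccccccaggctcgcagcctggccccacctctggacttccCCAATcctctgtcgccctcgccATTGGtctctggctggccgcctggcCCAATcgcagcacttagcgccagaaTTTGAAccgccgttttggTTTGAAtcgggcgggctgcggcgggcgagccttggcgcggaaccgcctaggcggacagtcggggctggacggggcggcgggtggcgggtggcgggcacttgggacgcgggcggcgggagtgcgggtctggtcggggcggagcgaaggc
Nuf2, chr1:169531415-169531714, minus strand: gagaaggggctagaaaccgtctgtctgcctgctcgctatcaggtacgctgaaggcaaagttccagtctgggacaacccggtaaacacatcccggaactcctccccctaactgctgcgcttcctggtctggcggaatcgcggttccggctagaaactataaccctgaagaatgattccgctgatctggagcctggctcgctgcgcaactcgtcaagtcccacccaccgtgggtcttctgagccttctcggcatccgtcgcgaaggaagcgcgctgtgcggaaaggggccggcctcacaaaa
Nusap1, chr2:119618048-119618347, plus strand: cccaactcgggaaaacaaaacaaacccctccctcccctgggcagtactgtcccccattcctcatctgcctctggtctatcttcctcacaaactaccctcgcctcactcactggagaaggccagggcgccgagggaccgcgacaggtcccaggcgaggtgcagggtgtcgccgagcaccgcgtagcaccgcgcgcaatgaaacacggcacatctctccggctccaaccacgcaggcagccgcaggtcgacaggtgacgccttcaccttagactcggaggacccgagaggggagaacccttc

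Library totals ran from 19617874 to 30759317 counts, and the 35 genes together took 0.272% to 0.465% of them. 1 library stood apart, replicate 2 of p53 siRNA with TGF-beta. Over the tested genes it and its partner differed by 0.805 on the log2 scale (root mean square), against 0.341 to 0.426 between partners in the other 7 groups. It also had the highest share of counts in the ribosomal RNA gene Rn18s-rs5, 5.75% against 0.557% to 4.35% in the other 15 libraries, and the fewest genes with a count, 19133 against 20076 to 20978. The part of these signs of RNA quality in the results was not tested. For the 35 genes the difference between partners was 0.42, against 0.0535 to 0.175, and comparisons are given with this library and without it. Both targeted RNAs were called lower in their own knockdowns. Prmt1 was at 75.8 ± 1.85 CPM with PRMT1 siRNA, against 158 ± 21.2 CPM with control siRNA, and Trp53 at 54.8 ± 0.822 CPM with p53 siRNA, against 136 ± 11.5 CPM (SD, n = 2 each, no TGF-beta). With both siRNAs Trp53 was less reduced, at 89.4 ± 1.87 CPM without TGF-beta and 90.04 ± 0.419 CPM with it. All 12 epicardial and mesothelial markers had counts in every library, summing to 324 to 440 CPM with TGF-beta and 1872 to 2766 CPM without it. Cardiomyocyte markers summed to 51.1 to 140.0 CPM with TGF-beta, nearly all from Tnnt2, and to 2.14 to 23.9 CPM without it. Endothelial markers summed to 4.25 to 9.57 CPM, with Tie1 at 0, and haematopoietic markers to 1.82 to 4.16 CPM, with Adgre1 at 0. The part of these markers in the results was not tested.

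Per length of the longest transcript, Top2a (topoisomerase II alpha, which untangles sister chromatids) was the most abundant of the 35, at 95.1 CPM per kb in untreated control cells, and Cdc25c (a phosphatase that activates Cdk1) the least, at 6.01 CPM per kb. Among the 4 cyclins, Ccnb2 was at 49.3, Ccna2 at 46.6 and Ccnb1 at 39.7 CPM per kb in the same cells, while Ccnf was at 9.80, the lowest of the 35 after Cdc25c. The values that follow are CPM, counts scaled to the same library size after TMM normalization, for replicates 1 and 2 of a group, which compare 1 gene between groups. Values after a gene are log2 changes ± SE, and a gene is called at an adjusted p under 0.05 over all genes tested. Counts at an unadjusted p, in DESeq2, with a library left out or in other alternative fits are often given without the share of all genes. Such a count shows how far the calls moved and is not a result about the 35. Reads of a gene and of a neighbour that overlaps it on the opposite strand cannot be told apart here, since the strand of counting is not given. This touches Ccna2 and Exosc9, Nusap1 and Oip5, Kif20a and Cdc23, Kif4 and Pdzd11, Cdc20 and Elovl1, and most of all Cdc25c, whose mean count of 366.9 stands beside 312.7 for Gm3550. Ccnb2 has a pseudogene copy with its own counts, Ccnb2-ps, which makes its counts uncertain.

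**Figure D1:**
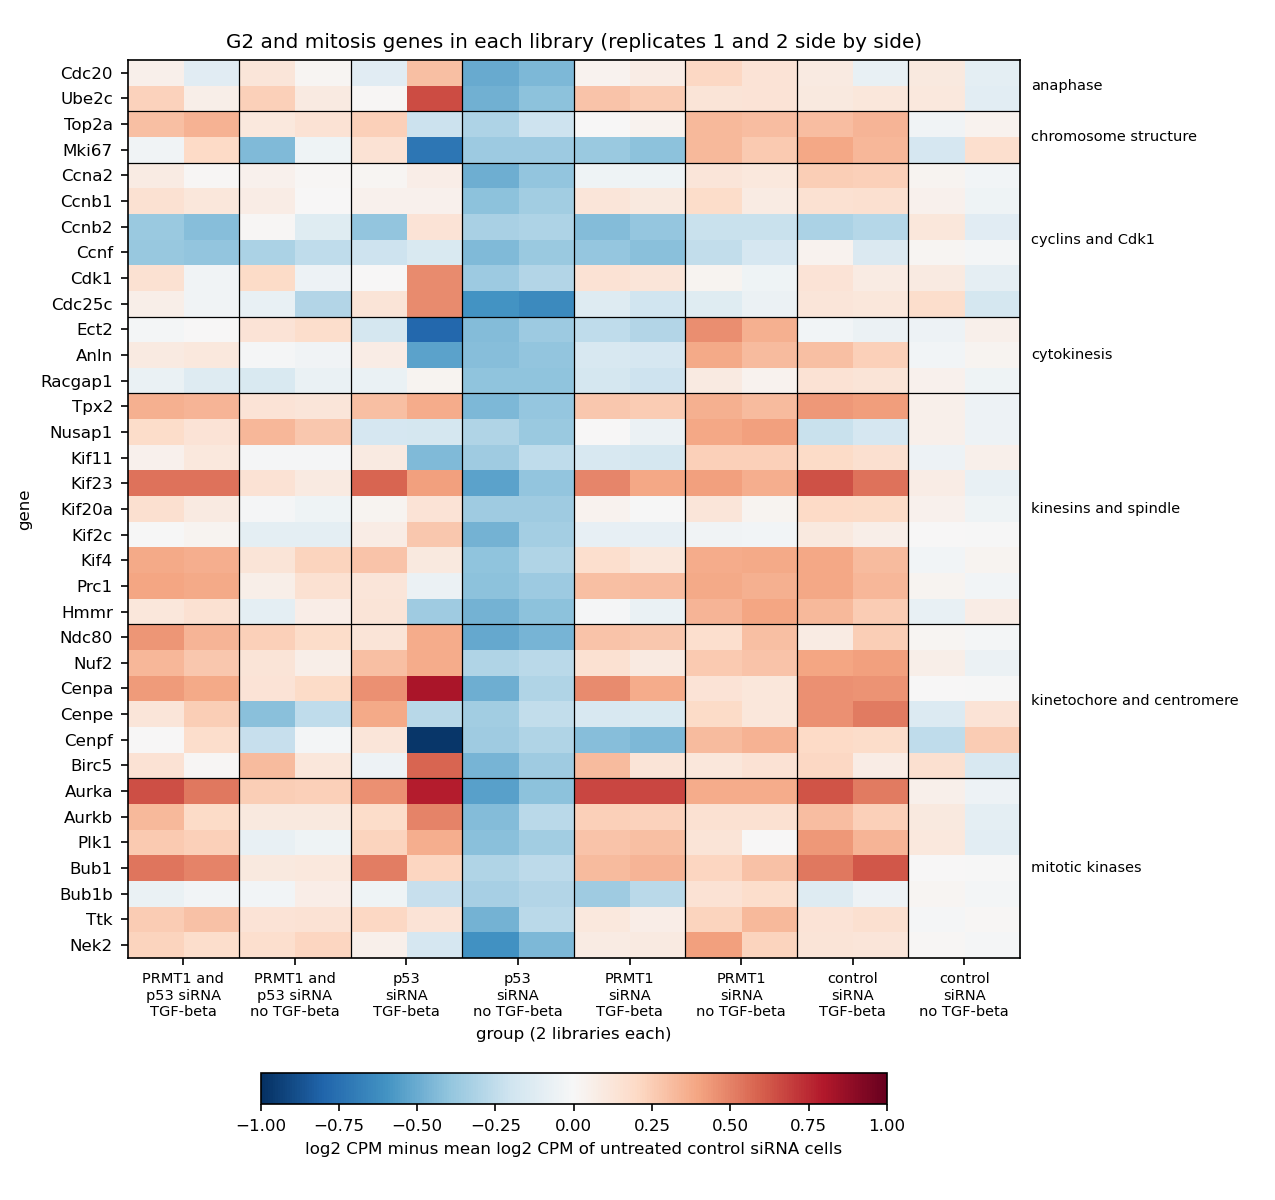
Log2 CPM of each of the 35 genes (rows, grouped by role) in each of the 16 libraries (columns, replicates 1 and 2 side by side within 8 groups), minus the mean log2 CPM of the 2 untreated control siRNA libraries; red is higher and blue lower. The p53 siRNA libraries without TGF-beta are blue in every row, and replicate 2 of p53 siRNA with TGF-beta differs from its partner in many rows.

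Without TGF-beta, all 35 mitotic genes lay on one side under p53 siRNA. They had negative log2 changes against control siRNA, from -0.63 for Cdc25c to -0.26 for Top2a, with a median of -0.39, against 0.01 over all genes tested. By edgeR's quasi-likelihood test with Benjamini-Hochberg adjustment, used throughout, 17 of the 35 were called lower and 0 higher, while 1.29% of all genes tested were called lower and 1.17% higher. Both p53 siRNA libraries lay below the other 6 libraries without TGF-beta for 33 of the 35 genes, as for 13.3% of all genes tested. For 25 of the 35 they were the lowest of all 16 libraries, as for 8.73% of genes.

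Every role but chromosome structure and anaphase held at least 1 called gene. Among the cyclins and their kinase, Ccna2, the cyclin of S phase and G2, was at 98.2 and 105 CPM with p53 siRNA, against 141 and 135 CPM with control siRNA (-0.44 ± 0.06, adjusted p = 0.00473). Ccnb1, the main mitotic partner of Cdk1, was at 74.2 and 77.5 CPM, against 102 and 95.8 CPM (-0.38 ± 0.07, adjusted p = 0.013). Ccnf, an F-box protein that marks proteins for degradation in G2, and Cdc25c also passed the test, with changes of -0.41 ± 0.07 and -0.63 ± 0.14. Cdk1 itself was at 109.6 and 115 CPM, against 149.8 and 133 CPM (-0.33 ± 0.14, adjusted p = 0.296), groups that did not overlap but a change that was not called. Ccnb2 gave -0.32 ± 0.14 and was not called either.

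Of the 7 mitotic kinases, 4 were called lower. Aurka, the centrosome and spindle kinase, was at 31.9 and 34.96 CPM with p53 siRNA, against 48.1 and 44.7 CPM (-0.47 ± 0.10, adjusted p = 0.0377). Nek2, which separates the centrosomes, was at 31.3 and 34.8 CPM, against 47.9 and 47.3 CPM (-0.52 ± 0.09, adjusted p = 0.0123). Plk1, polo-like kinase 1, changed by -0.39 ± 0.08 and Ttk, the spindle checkpoint kinase also called Mps1, by -0.37 ± 0.08. The checkpoint proteins Bub1 and Bub1b and the chromosomal passenger kinase Aurkb gave -0.28, -0.31 and -0.35 and did not pass the test. Of the 9 kinesins and spindle proteins, 7 were called lower: Tpx2, which activates Aurka on the spindle, Nusap1, which binds spindle microtubules, Prc1, which bundles the central spindle, and the kinesins Kif23, Kif20a, Kif2c and Kif4. Kif23, the motor of the central spindle, was at 43.7 and 48.1 CPM, against 66.5 and 60.2 CPM (-0.46 ± 0.09, adjusted p = 0.017). Kif11, the motor that drives spindle poles apart, and Hmmr, a spindle-associated protein, gave -0.31 ± 0.13 and -0.44 ± 0.13 and were not called.

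At the kinetochore only Ndc80, which holds microtubules, was called: it was at 32.6 and 33.6 CPM, against 47.1 and 45.8 CPM (-0.49 ± 0.09, adjusted p = 0.0202). Its partner Nuf2 gave -0.28 ± 0.07, adjusted p = 0.052. Cenpa, the centromeric histone, Cenpe and Cenpf, 2 large kinetochore proteins, and Birc5, survivin of the chromosomal passenger complex, gave -0.39, -0.30, -0.35 and -0.42 and were not called. Cdc20 and Ube2c, which serve the anaphase-promoting complex, gave -0.48 and -0.45, and Top2a and Mki67, which act on mitotic chromosomes, -0.26 and -0.37, again without a call. Of the 3 cytokinesis genes, Racgap1, the GTPase-activating partner of Kif23, was called lower (-0.40 ± 0.07, adjusted p = 0.0113), while Ect2, an activator of RhoA, and Anln, anillin of the contractile ring, gave -0.40 ± 0.14 and -0.41 ± 0.14. Without the library that stood apart, which is in neither group but enters the shared estimate of the spread, 34 of the 35 were called lower, all but Cenpf, and 0 higher, against 6.56% and 5.09% of all genes. Leaving out 1 of the 4 libraries compared left 0 calls without control siRNA replicate 1 or p53 siRNA replicate 1, 5 without control siRNA replicate 2 and 4 without p53 siRNA replicate 2, each lone library being assumed to vary like the other groups.

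**Figure D2:**
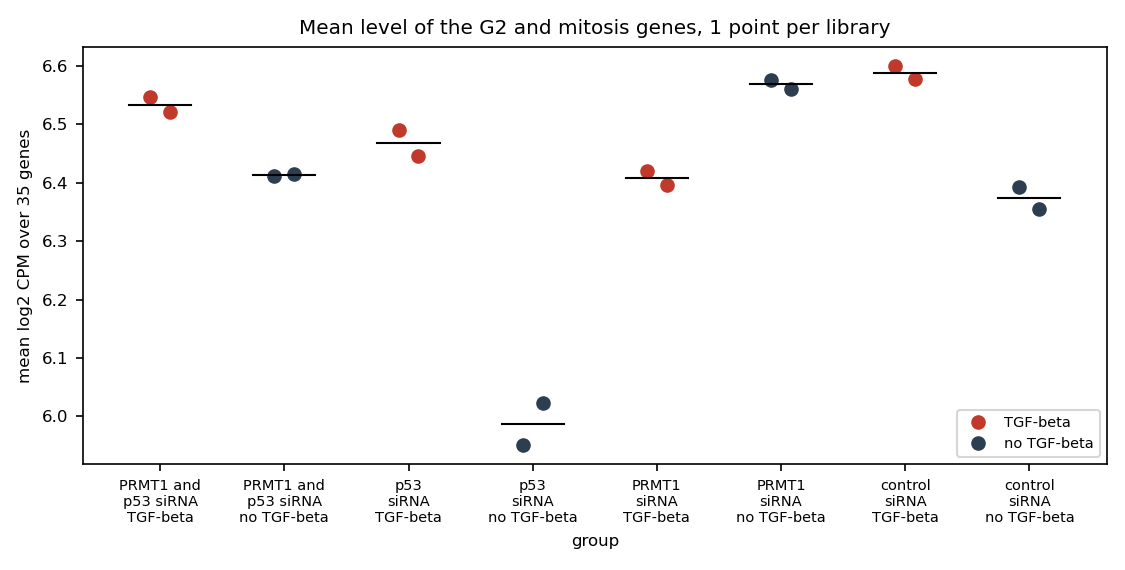
Mean log2 CPM of the 35 genes in each library (1 point per library, red with TGF-beta and dark without it; the bar is the group's mean). The 2 p53 siRNA libraries without TGF-beta, at 5.95 and 6.02, lie below the other 14, which run from 6.36 to 6.60.

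Cdkn1a, the p21 gene, was lower in the same cells: it was at 9.12 ± 0.120 CPM with p53 siRNA, against 28.1 ± 1.30 CPM with control siRNA (SD, n = 2 each; -1.62 ± 0.08, adjusted p = 2.74e-06). Cdkn1a, which p53 raises directly, and the mitotic genes were thus both lower in untreated p53 siRNA cells. By promoter, the 23 genes with TTTGAA in a window had a median log2 change of -0.39 and the 7 without it one of -0.34, given as a description. Of these 7, Bub1 held TTCGAA, and Ccnb1, Cenpe and Birc5 held TTTAAA. The split thus does not separate genes with and without a close variant of the element.

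In p53 siRNA cells TGF-beta raised most of the mitotic genes. 25 of the 35 were called higher with TGF-beta and 0 lower, against 23.3% and 22% of all genes tested, and the median log2 change was 0.48, against 0.02 over all genes. Both groups here carry p53 siRNA, and the untreated one is the group that lay lowest above. With p53 siRNA plus TGF-beta replicate 2 left out, 32 were called higher, 24 of them among the 25, and 0 lower, against 22.7% and 23.5% of genes. Ccnf was then no longer called.

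The largest of these changes were those of Aurka, Cenpa and Kif23. Aurka was at 63.6 and 80.1 CPM with TGF-beta, against 31.9 and 34.96 CPM without it (1.10 ± 0.10, adjusted p = 4.32e-06). Cenpa was at 107 and 138 CPM, against 55.8 and 63.4 CPM (1.04 ± 0.11, adjusted p = 9.11e-06). Kif23 was at 94.5 and 84.1 CPM, against 43.7 and 48.1 CPM (0.96 ± 0.09, adjusted p = 2.71e-06). For all 3 genes both treated libraries lay above both untreated ones, which adds no support, as the genes were picked as called. Among the cell cycle engine genes, Cdc25c was at 17.2 and 21.8 CPM, against 10.4 and 10.1 CPM (0.93 ± 0.14, adjusted p = 0.000178), and Ccna2 at 139.9 and 144 CPM, against 98.2 and 105 CPM (0.48 ± 0.06, adjusted p = 7.42e-05). Ccnb1 rose by 0.42 ± 0.07, Cdk1 by 0.59 ± 0.14 and Ccnf by 0.23 ± 0.07. 6 of the 7 kinases, 7 of the 9 kinesins and spindle genes and 4 of the 6 kinetochore genes were called, and both anaphase genes, with Ube2c at 0.81 ± 0.16 and Cdc20 at 0.58 ± 0.13. Plk1 was at 76.2 and 84.03 CPM with TGF-beta, against 48.8 and 51.4 CPM (0.68 ± 0.08, adjusted p = 4.97e-05), and Tpx2 at 176 and 185 CPM, against 105 and 109 CPM (0.75 ± 0.06, adjusted p = 1.84e-06). Ndc80 was at 50.7 and 60.1 CPM, against 32.6 and 33.6 CPM (0.74 ± 0.09, adjusted p = 4.84e-05), and Birc5 at 59.1 and 91.7 CPM, against 44.4 and 47.7 CPM (0.71 ± 0.18, adjusted p = 0.00616). In all 4, also picked as called, the treated libraries again lay above the untreated ones.

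The 10 genes not called include those with the longest transcripts, Cenpf and Mki67, whose treated libraries disagreed. They also include Ccnb2, with the shortest, of 1531 nt. Cenpf was at 139.6 and 65.2 CPM with TGF-beta, against 100.2 and 104 CPM, and Mki67 at 368 and 202 CPM, against 258 and 259 CPM. Ect2 and Anln were likewise lower in replicate 2, at 61.3 and 126 CPM, than in replicate 1, at 93.1 and 193 CPM. Replicate 2 was the higher one for other genes: Ube2c was at 86.02 and 134 CPM and Cdk1, a longer transcript than Ect2, at 142 and 195 CPM with TGF-beta. Over the 35, Spearman's rho between length and the log2 difference of replicate 2 from replicate 1 was -0.65, as a description of genes measured in the same pair of libraries. Without that replicate the log2 changes were 0.45 ± 0.14 for Cenpf and 0.51 ± 0.14 for Mki67, both called, and 0.93 ± 0.08 for Aurka, 0.85 ± 0.07 for Cenpa and 0.46 ± 0.10 for Ube2c. In a fit of these 2 groups alone, 7 were called higher, and leaving out 1 of the other 3 libraries left 22 to 25 higher, with 2 lower without p53 siRNA with TGF-beta replicate 1.

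**Figure D3:**
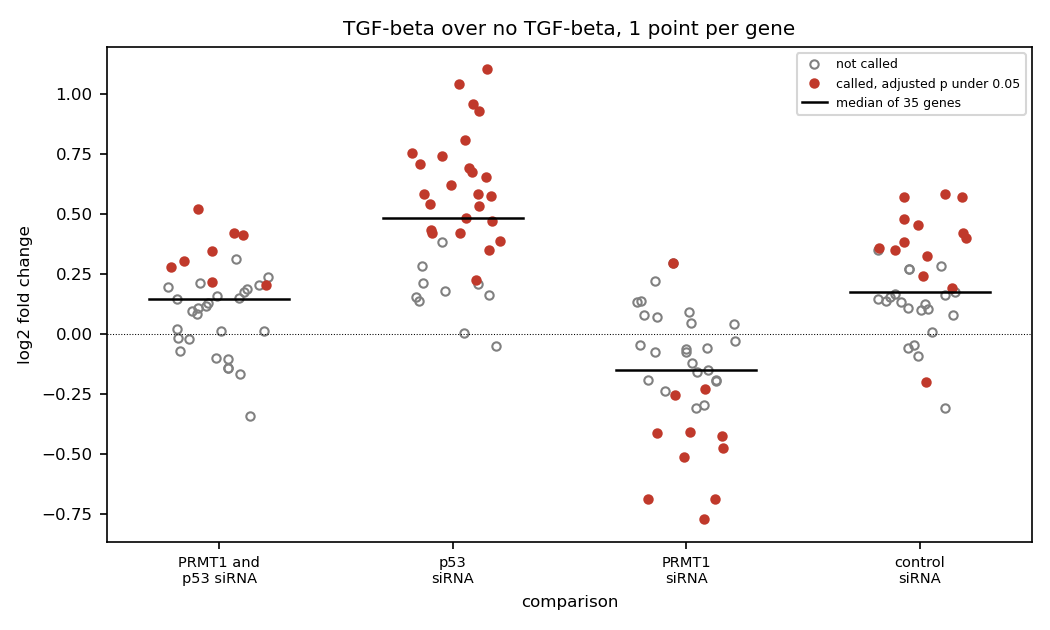
Log2 fold change with over without TGF-beta of each of the 35 genes (1 point per gene; red where called; the bar is the median), under both siRNAs, p53 siRNA, PRMT1 siRNA and control siRNA. The points of p53 siRNA lie highest, with a median of 0.48, and those of PRMT1 siRNA lowest, with a median of -0.15.

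With TGF-beta on both sides, p53 siRNA cells and control cells differed in 1 called gene, a share near that of all genes. Prc1 was at 110.5 and 97.7 CPM with p53 siRNA, against 132 and 128 CPM with control siRNA (-0.32 ± 0.07, adjusted p = 0.028). The background was 2.39% of genes called lower and 2.82% higher, and the median over the 35 was -0.09, in a range from -0.58 for Mki67 to 0.26 for Ube2c. A change under the threshold does not show that the levels were alike, and this comparison holds the library that stood apart: with it alone on the p53 side, that is without replicate 1, 11 genes were called higher and 13 lower, without it 1 was called lower, Prc1, against 2.25% of genes lower and 1.86% higher, and without either control siRNA replicate 0 were called. The interaction, which asks whether TGF-beta changed a gene differently under p53 siRNA and under control siRNA, had a median of 0.28 over the 35, and 0 were called, against 0.452% and 0.568% of all genes. At an unadjusted p under 0.05 there were 24, and DESeq2 called 7, with no share of all genes to set beside these counts. Without the library 7 were called, all higher under p53 siRNA, against 0.981% of genes called higher and 1.26% lower: Bub1b, Nek2, Nusap1, Ndc80, Kif23, Kif2c and Cenpa, with Ndc80 at 0.46 ± 0.11. Without p53 siRNA with TGF-beta replicate 1 instead, 22 were called higher and 7 lower. Spearman's rho with transcript length over the 35 was -0.65 for p53 siRNA against control with TGF-beta and -0.71 for this interaction.

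PRMT1 siRNA without TGF-beta raised a group of spindle genes and kinases. 9 of the 35 were called higher than with control siRNA and 0 lower, against 4.48% and 5.85% of all genes tested, with a median log2 change of 0.24, against 0.01 over all genes. The control libraries are the same as those set against p53 siRNA above. Both PRMT1 siRNA libraries were the highest of the 8 untreated libraries for 22 of the 35 genes, as for 14.1% of all genes. The 9 were mainly spindle genes and kinases: Nusap1, Kif23, Kif4, Prc1 and Tpx2, the kinases Aurka, Nek2 and Ttk, and Nuf2. Nusap1 was at 77.6 and 78.6 CPM with PRMT1 siRNA, against 61.3 and 57.3 CPM with control siRNA (0.40 ± 0.06, adjusted p = 0.00335). Kif4, a chromosome-bound kinesin, was at 72.1 and 72.5 CPM, against 54.9 and 56.8 CPM (0.37 ± 0.08, adjusted p = 0.0103). Tpx2 was at 183 and 178 CPM, against 148 and 138 CPM (0.33 ± 0.06, adjusted p = 0.00734). Prc1 was at 132 and 130.0 CPM, against 103 and 99.7 CPM (0.37 ± 0.07, adjusted p = 0.00855), and Kif23 at 84.2 and 81.3 CPM, against 66.5 and 60.2 CPM (0.39 ± 0.08, adjusted p = 0.0144). Aurka was at 60.1 and 59.98 CPM, against 48.1 and 44.7 CPM (0.37 ± 0.10, adjusted p = 0.0403). The groups did not overlap in any of these 6 genes, which were picked as called, so this adds no support.

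None of the 6 cyclin and Cdk1 genes was called, and their changes ran from -0.23 for Ccnb2 to 0.14 for Ccnb1. The cytokinesis genes Ect2 and Anln, at 0.41 ± 0.14 and 0.35 ± 0.14, had changes as large as those of the called genes with a wider error. Cdkn1a stood at 82.8 ± 4.65 CPM with PRMT1 siRNA, against 28.1 ± 1.30 CPM with control siRNA (SD, n = 2 each; 1.56 ± 0.07, adjusted p = 1.83e-06), higher along with the 9 mitotic genes. Without the library that stood apart 16 were called higher and 2 lower, namely Ccnb2 and Ccnf, against 11% and 15.4% of genes. Leaving out 1 library left 3 higher without control siRNA replicate 1, 0 without its replicate 2, and 1 and 2 without PRMT1 siRNA replicates 1 and 2.

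TGF-beta lowered a set of mitotic genes under PRMT1 siRNA. With TGF-beta, 10 of the 35 were called lower and 1 higher, against 16.2% and 16.3% of all genes tested, and the median log2 change was -0.15. The 10 were the cytokinesis genes Ect2, Anln and Racgap1, the spindle genes Nusap1, Kif11, Hmmr and Kif4, Bub1b of the spindle checkpoint, Cenpf and Mki67. Ect2 was at 88.6 and 85.8 CPM with TGF-beta, against 145 and 135 CPM without it (-0.69 ± 0.14, adjusted p = 0.00305). Mki67, the Ki-67 proliferation marker, was at 258 and 250.2 CPM, against 417 and 399 CPM (-0.68 ± 0.22, adjusted p = 0.0365). Cenpf was at 95.5 and 93.7 CPM, against 159.8 and 163 CPM (-0.77 ± 0.26, adjusted p = 0.0433). In these 3 genes, picked from the called ones, both treated libraries lay far below both untreated ones. The exception was Aurka, at 73.6 and 73.8 CPM, against 60.1 and 59.98 CPM (0.29 ± 0.10, adjusted p = 0.043). In the fit of the 15 other libraries, 18 were called lower and 3 higher, against 25% and 25.7% of genes, and leaving out 1 PRMT1 siRNA library left 3 lower, or 6 without replicate 2 of the untreated cells, and 0 higher.

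Under control siRNA TGF-beta raised more of the mitotic genes than it lowered. 13 of the 35 were called higher and 1 lower, against 17.8% and 20.6% of all genes tested, and the median was 0.18. Kif23 was at 98.1 and 92.1 CPM with TGF-beta, against 66.5 and 60.2 CPM without it (0.59 ± 0.08, adjusted p = 0.000174). Bub1 was at 96.7 and 103 CPM, against 67.4 and 66.8 CPM (0.57 ± 0.09, adjusted p = 0.000281), and Tpx2 at 193 and 191 CPM, against 148 and 138 CPM (0.42 ± 0.06, adjusted p = 0.000242). The called genes spread over the roles: the kinases Aurka, Plk1 and Bub1, the spindle genes Tpx2, Kif23, Kif20a, Kif4 and Prc1, the kinetochore genes Nuf2, Cenpa and Cenpe, and Ccna2 and Top2a. Cenpa was at 107 and 107 CPM, against 78.4 and 78.1 CPM (0.45 ± 0.11, adjusted p = 0.00495), Plk1 at 88.3 and 82.6 CPM, against 70.2 and 60.9 CPM (0.38 ± 0.08, adjusted p = 0.00352), and Top2a at 615 and 630.2 CPM, against 485 and 508 CPM (0.33 ± 0.12, adjusted p = 0.0433). Nusap1 was the gene that fell, to 50.7 and 52.6 CPM with TGF-beta, against 61.3 and 57.3 CPM (-0.20 ± 0.07, adjusted p = 0.0313). Both control libraries were the highest of the 8 TGF-beta libraries for 13 of the 35 genes, as for 12.5% of all genes. Without the library that stood apart 19 were called higher and 2 lower, against 24.8% and 27.5% of genes. Leaving out 1 library left 9 or 10 calls; the fewest, 9, came without either TGF-beta replicate.

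With TGF-beta in both groups, 6 of the 35 were lower with PRMT1 siRNA than with control siRNA and 0 higher, against 6.53% and 9.13% of all genes. They were Ccna2, Ccnf, Racgap1, Nuf2, Cenpe and Mki67. Racgap1 was at 136 and 132 CPM with PRMT1 siRNA, against 169.7 and 168 CPM with control siRNA (-0.33 ± 0.07, adjusted p = 0.00867), and Ccna2 at 134 and 134 CPM, against 164 and 163 CPM (-0.29 ± 0.06, adjusted p = 0.0125). Cenpe, the kinetochore motor, was at 108 and 108 CPM, against 165 and 172 CPM (-0.64 ± 0.17, adjusted p = 0.0248). With p53 siRNA plus TGF-beta replicate 2 left out, 19 were lower and 1, Nusap1, higher, against 20.1% and 21.2% of genes. Leaving out 1 library left 0 calls, or 1 without control siRNA replicate 2.

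The difference between the TGF-beta responses was tested as an interaction. It was negative, meaning a smaller rise or a fall with PRMT1 siRNA, and called for 5 of the 35 genes and positive for 0 called, against 0.781% and 1.30% of all genes tested. The 5 were Kif4 (-0.58 ± 0.11, adjusted p = 0.0209), Nuf2 (-0.55 ± 0.09, adjusted p = 0.0148), Kif23 (-0.54 ± 0.12, adjusted p = 0.0422), Tpx2 (-0.50 ± 0.09, adjusted p = 0.0187) and Ccna2 (-0.40 ± 0.09, adjusted p = 0.046). For Kif23 the response was 0.05 ± 0.08 with PRMT1 siRNA and 0.59 ± 0.08 with control siRNA, and for Kif4 it was -0.23 ± 0.08 and 0.35 ± 0.08. The median interaction over the 35 was -0.36, against 0.03 over all genes. Larger estimates with larger errors, such as -1.03 ± 0.32 for Mki67 and -0.79 ± 0.20 for Anln, were not called. Without the library that stood apart 21 were called, all negative, against 13.3% of genes called negative and 17.3% positive. Leaving out 1 of the 8 libraries left 1 call without control siRNA replicate 1 without TGF-beta and 0 without any other.

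Transcript length moved with these comparisons. In the PRMT1 siRNA response the 17 genes longer than 3668 nt, the median of the 35, had a median change of -0.25, and the other 18 one of -0.055. Spearman's rho between length and change was -0.58 over the 35 genes and -0.21 over all genes tested, and for the interaction -0.67 and -0.41, as descriptions of genes measured in the same libraries. In the control siRNA response the medians were 0.27 and 0.14. For p53 siRNA against control without TGF-beta the medians were -0.37 and -0.39, with a rho of 0.37 over the 35. When a smooth trend with length was removed from each library, which also takes out a trend that a group shares, Cenpf fell by 0.47 ± 0.07 and Mki67 by 0.41 ± 0.06 with TGF-beta under PRMT1 siRNA, while Ect2 kept -0.64 ± 0.11 and Anln -0.43 ± 0.09, and all 4 stayed called. Kif4 and Racgap1, at -0.13 ± 0.06 and -0.18 ± 0.08, were then not called. All 5 interaction calls held, Kif23 at -0.51 ± 0.10 and Nuf2 at -0.48 ± 0.09, among 18 of the 35. Calls also rose over all 15494 genes tested, from 322 in the main fit to 1090 with the trend removed. The same trend was removed for the other comparisons, and the counts that moved are given further below. How much of a change comes from length was not tested.

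**Figure D4:**
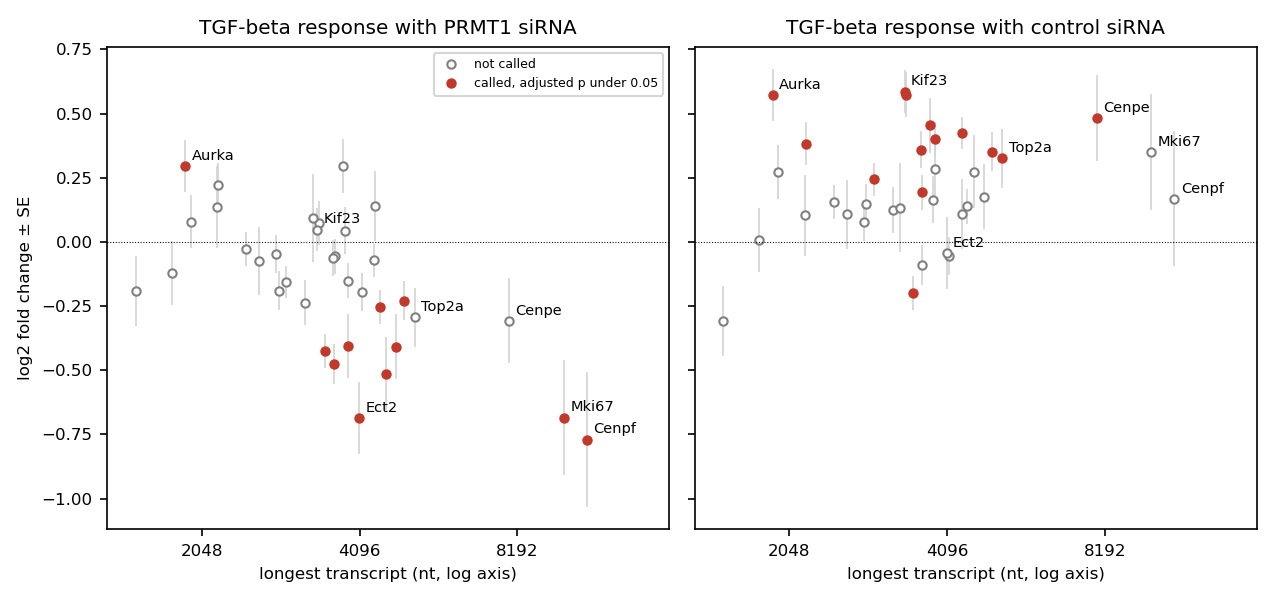
Log2 fold change with over without TGF-beta (± SE, n = 2 libraries per group) of each of the 35 genes against the length of its longest transcript (log axis), with PRMT1 siRNA on the left and control siRNA on the right; red points are called. With PRMT1 siRNA Cenpf, the longest, lies lowest, at -0.77. Ect2, of 4086 nt, and Mki67, of 10061 nt, come next, at -0.69 and -0.68.

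With both siRNAs few mitotic genes were called against control, a share near that of all genes. Without TGF-beta 1 of the 35, Nusap1, was called higher and 0 lower, against 2.31% and 2.14% of all genes: it was at 74.5 and 71.4 CPM with both siRNAs, against 61.3 and 57.3 CPM with control siRNA (0.30 ± 0.06, adjusted p = 0.0256). With TGF-beta Nusap1 was again higher, at 67.2 and 65.2 CPM, against 50.7 and 52.6 CPM (0.36 ± 0.07, adjusted p = 0.00454), and Ccnf and Racgap1 were lower (-0.33 ± 0.07 and -0.24 ± 0.07), so that 1 was higher and 2 lower against 7.71% and 5.35% of all genes. Under both siRNAs TGF-beta raised 8 of the 35 and lowered 0, against 15% and 16.3% of genes: Aurka, Plk1, Bub1, Tpx2, Kif23, Prc1, Nuf2 and Cenpe. Kif23 was at 91.9 and 92.1 CPM with TGF-beta, against 70.04 and 67.1 CPM without it (0.42 ± 0.08, adjusted p = 0.00225), and Bub1 at 97.3 and 94.8 CPM, against 71.9 and 72.2 CPM (0.42 ± 0.09, adjusted p = 0.00337). In the fit of the 15 other libraries, 3 were higher and 2 lower than control without TGF-beta, against 8.56% and 10.1% of genes. With TGF-beta 2 were higher and 5 lower, against 15.7% and 14.2%, and TGF-beta raised 14 and lowered 3, against 23.5% and 23.9%. Leaving out 1 library left 0 calls in the first comparison, 0 to 2 in the second, with 0 without control siRNA with TGF-beta replicate 1, and 2 to 4 in the third, with 2 without replicate 1 of either double siRNA group.

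PRMT1 siRNA on top of p53 siRNA raised the mitotic genes in untreated cells. 24 of the 35 were called higher with both siRNAs than with p53 siRNA alone and 0 lower, against 5.51% and 5.18% of all genes, with a median of 0.43. All 7 kinases were among them, 7 of the 9 kinesins and spindle genes, 4 of the 6 kinetochore genes, both anaphase genes, Ect2 and Racgap1, and 2 of the 6 cyclin and Cdk1 genes, Ccna2 and Ccnb1. Nek2 was at 53.4 and 55.1 CPM with both siRNAs, against 31.3 and 34.8 CPM with p53 siRNA (0.71 ± 0.09, adjusted p = 0.000686). Aurka was at 54.9 and 54.6 CPM, against 31.9 and 34.96 CPM (0.71 ± 0.10, adjusted p = 0.00158), and Ndc80 at 54.8 and 52.7 CPM, against 32.6 and 33.6 CPM (0.70 ± 0.09, adjusted p = 0.000912). Nusap1 was at 74.5 and 71.4 CPM, against 48.1 and 45.8 CPM (0.64 ± 0.07, adjusted p = 0.000212). In each of these 4 genes, picked from the called ones, the groups were well apart. Birc5 was at 76.1 and 66.2 CPM, against 44.4 and 47.7 CPM (0.63 ± 0.18, adjusted p = 0.0421), Ube2c at 101 and 90.8 CPM, against 60.99 and 64.2 CPM (0.61 ± 0.16, adjusted p = 0.0315), and Ect2 at 116 and 119 CPM, against 77.97 and 82.05 CPM (0.55 ± 0.14, adjusted p = 0.0292). Cdk1, at 0.41 ± 0.14, adjusted p = 0.0852, and Ccnf, at 0.12 ± 0.07, adjusted p = 0.344, were not called. Trp53 itself was higher with both siRNAs, 89.4 ± 1.87 CPM, against 54.8 ± 0.822 CPM with p53 siRNA alone, and Cdkn1a was at 37.1 ± 0.715 CPM, against 9.12 ± 0.120 CPM (SD, n = 2 each). How far the weaker knockdown of Trp53 bears on the mitotic genes was not tested. Without the library that stood apart 31 were called higher and 0 lower, against 16% and 14.9% of genes, and leaving out 1 library left 11 without replicate 1 of either group, 13 without p53 siRNA replicate 2 and 12 without replicate 2 of both siRNAs.

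**Figure D5:**
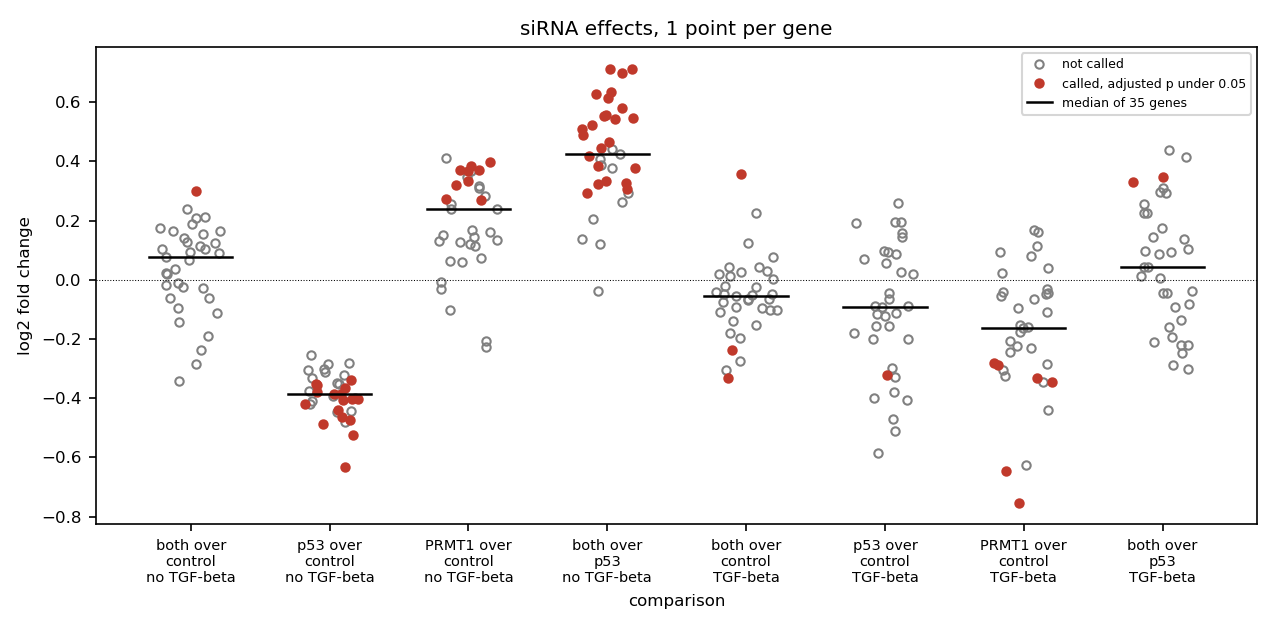
Log2 fold change of each of the 35 genes (1 point per gene; red where called; the bar is the median) in 4 siRNA comparisons without TGF-beta and the same 4 with it. The points of p53 siRNA over control without TGF-beta all lie below 0, with a median of -0.39, and those of both siRNAs over p53 siRNA without TGF-beta have a median of 0.43.

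With TGF-beta, PRMT1 siRNA on top of p53 siRNA raised 2 genes, a share near that of all genes, of which 5.46% were called higher and 4.69% lower. Nusap1 was at 67.2 and 65.2 CPM with both siRNAs, against 52.7 and 52.6 CPM with p53 siRNA (0.33 ± 0.07, adjusted p = 0.00957), and Prc1 at 133 and 132 CPM, against 110.5 and 97.7 CPM (0.35 ± 0.07, adjusted p = 0.0128). This count was 3 without the library that stood apart, against 6.41% of genes higher and 4.69% lower, 0 without replicate 1 or 2 of both siRNAs, and 14 higher and 11 lower without p53 siRNA replicate 1. p53 siRNA on top of PRMT1 siRNA gave 0 calls among the 35 without TGF-beta, against 0.297% of genes called lower and 0.568% higher, and 0 with it, against 0.232% and 0.219%. At an unadjusted p under 0.05 there were 10 without TGF-beta and 6 with it, and DESeq2 called 2 and 0. No share of all genes is set beside these counts. The medians were -0.13 without TGF-beta and 0.11 with it. With p53 siRNA plus TGF-beta replicate 2 left out, 14 genes were called lower without TGF-beta, among them Mki67 (-0.51 ± 0.12), Cenpe (-0.48 ± 0.08) and Kif23 (-0.26 ± 0.07), and 12 higher with it, among them Cenpf (0.54 ± 0.12) and Bub1b (0.28 ± 0.05). Without TGF-beta 9.83% of all genes were then called lower and 11.8% higher, and with it 5.74% higher and 6.45% lower. Spearman's rho with length over the 35 was -0.60 without TGF-beta and 0.65 with it, in the fit of all 16 libraries.

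Whether the 2 siRNAs added up was asked with an interaction at each TGF-beta state. Without TGF-beta its median over the 35 was 0.24, and 0 were called, against 0% of all genes in either direction. At an unadjusted p under 0.05 there were 14, and DESeq2 called 1, with no share of all genes to set beside these counts. Without the library that stood apart 17 were called, all positive, against 5.64% of genes positive and 3.60% negative, with Cdc25c at 0.58 ± 0.16, Birc5 at 0.54 ± 0.15 and Ccnb2 at 0.52 ± 0.10. With TGF-beta the median was 0.20 and 0 were called, against 0.452% and 0.310% of genes. There were 17 at an unadjusted p under 0.05, and DESeq2 called 11, again with no share of all genes beside them. Without the library 4 were called, all positive, Top2a, Prc1, Ect2 and Anln, against 1.47% of genes positive and 0.845% negative, and without p53 siRNA with TGF-beta replicate 1, 15 were called higher and 7 lower.

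Further mitotic genes outside the 35 were counted in the same fits, 63 of them tested. They too were chosen with earlier results of these data known. Under p53 siRNA without TGF-beta 19 of the 63 were called lower and 0 higher, against 1.29% and 1.17% of all genes, with a median of -0.35. They were led by Psrc1, a spindle protein (-0.76 ± 0.09, adjusted p = 0.00142), and Ckap2, a spindle pole protein (-0.56 ± 0.09, adjusted p = 0.00633). TGF-beta raised 45 and lowered 1 of the 63 under p53 siRNA, against 23.3% and 22% of all genes. Under PRMT1 siRNA it raised 4 and lowered 13, against 16.3% and 16.2%. Under control siRNA it raised 23 and lowered 4, against 17.8% and 20.6%. Psrc1 was among the 4 that fell with TGF-beta under control siRNA (-0.93 ± 0.09, adjusted p = 7.65e-06). PRMT1 siRNA on top of p53 siRNA without TGF-beta raised 38 and lowered 0, against 5.51% and 5.18% of all genes, with Psrc1 at 1.04 ± 0.09. Kif18b, a kinesin of the spindle ends, was among the 6 of the 63 with a called negative interaction of PRMT1 siRNA and TGF-beta (-0.46 ± 0.09, adjusted p = 0.0246), against 0.781% of all genes.

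The transcriptional regulators of these genes were counted too. Of 22 tested, 0 were called lower and 0 higher under p53 siRNA without TGF-beta, against 1.29% and 1.17% of all genes, with 3 at an unadjusted p under 0.05. Mybl2, the activator B-MYB, gave -0.40 ± 0.10, adjusted p = 0.0718 and Foxm1, the activator FOXM1, -0.33 ± 0.11, adjusted p = 0.183. TGF-beta raised Mybl2 under p53 siRNA (0.90 ± 0.10, adjusted p = 2.29e-05), PRMT1 siRNA (0.41 ± 0.10, adjusted p = 0.0085) and control siRNA (0.83 ± 0.10, adjusted p = 4.82e-05). PRMT1 siRNA on top of p53 siRNA without TGF-beta raised 2 and lowered 0, against 5.51% and 5.18% of all genes. Foxm1 was higher with both siRNAs than with p53 siRNA alone in untreated cells (0.44 ± 0.11, adjusted p = 0.0306). E2f7, a repressor that acts on S phase genes, rose with TGF-beta under p53 siRNA (0.81 ± 0.19, adjusted p = 0.00486) and control siRNA (1.11 ± 0.19, adjusted p = 0.000637).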

How the data were processed

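Poly(A) RNA of MEC1 cells was sequenced in 16 libraries, 2 in each of 8 groups. Values are expected counts, as deposited by the authors. The submitters' processing notes name TopHat2, Partek and mm10. Versions, annotation and strand setting are not given in the sources used here. 27 of the 35 genes had values off whole numbers by over 0.01, and of all values above 0, 60.0% were whole, so all were rounded. Library totals of 19617874 to 30759317 set the precision.

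edgeR 4.0.16 in R 4.3.3, with limma 3.58.1, fitted 1 mean per group over all 16 libraries (TMM, filterByExpr, quasi-likelihood F test). Benjamini-Hochberg adjustment ran over all 15494 genes tested, and a call is an adjusted p under 0.05. 18 contrasts were tested. Alternatives were DESeq2 1.42.0, its size factors, no low-count filter, a replicate block, only the groups compared, each library left out, 15 libraries, and offsets from a lowess of span 0.3 on log2 transcript length. The members, gene lists and the last 2 alternatives were chosen with earlier results of these data known. Any of the 35 could be named, and from each other list up to 4 genes with the lowest adjusted p in a comparison. Checked on simulated counts for PRMT1 siRNA against control without TGF-beta, over 15334 genes, the test found 22 of 67 genes with a log2 change of 0.5, 62 of 67 with 1 and 65 of 66 with 2, along with 11 genes that had none.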

Additional observations from a re-analysis of the deposited data

Results flagged for a closer look

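For 5 mitotic genes the TGF-beta response differed between PRMT1 siRNA and control siRNA by a test of the difference itself, with adjusted p-values from edgeR's quasi-likelihood test. The log2 difference was -0.40 ± 0.09, adjusted p = 0.046 for Ccna2, -0.50 ± 0.09, adjusted p = 0.0187 for Tpx2, -0.55 ± 0.09, adjusted p = 0.0148 for Nuf2, -0.54 ± 0.12, adjusted p = 0.0422 for Kif23 and -0.58 ± 0.11, adjusted p = 0.0209 for Kif4. Without p53 siRNA with TGF-beta replicate 2, which is in none of the 4 groups, all 5 were called, among 21 genes. With 1 of the 8 libraries left out, 0 or 1 gene was called, the 1 without control siRNA replicate 1 without TGF-beta.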

How the results depend on the processing

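Calls rested on the shared estimate of the spread, a biological coefficient of variation of 0.114 in common over genes with 16 libraries and of 0.0604 without p53 siRNA with TGF-beta replicate 2. Of 126 called values of single genes, 125 stayed called without that library, 126 in DESeq2, 124 with DESeq2 size factors, 120 with length offsets, 105 with the replicate block, 101 in fits of only the groups compared, 88 without the low-count filter, and 230 of 524 with 1 library left out, and 0 reversed. No setting moved the median of all genes by over 0.1. The causes were not tested, except that leaving out a library leaves 1 in a group.

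Counts of called genes among the 35 that moved by over 1.5 times were as follows. With DESeq2 size factors both siRNAs against control without TGF-beta gave 2. Without the low-count filter, both siRNAs against control gave 0 without and 1 with TGF-beta, p53 siRNA against control with TGF-beta 6, p53 siRNA added to PRMT1 siRNA 5 without and 2 with TGF-beta, PRMT1 siRNA added to p53 siRNA with TGF-beta 5, and the interactions with TGF-beta 11 for PRMT1 siRNA and 8 for p53 siRNA, and 8 for PRMT1 with p53 siRNA in TGF-beta. Replicates shared only a number: of 28 correlations of same-numbered deviations, from -0.401 to 0.246, 6 were above 0.1. With the replicate block the TGF-beta response under PRMT1 siRNA gave 7 and its interaction 3, and no other count moved by as much. With length offsets PRMT1 siRNA against control gave 15 without and 15 with TGF-beta, p53 siRNA 31 and 4, both siRNAs without TGF-beta 4, p53 siRNA added to PRMT1 siRNA 3 and 2, PRMT1 siRNA added to p53 siRNA with TGF-beta 6, and the interactions with TGF-beta 18 for PRMT1 siRNA and 8 for p53 siRNA, and 5 for both in TGF-beta. Calls over all genes rose in every comparison with these offsets, as from 382 to 1092 for p53 siRNA against control without TGF-beta. With 15 libraries the TGF-beta response gave 21 under PRMT1 siRNA and 17 under both siRNAs. In that fit PRMT1 siRNA against control gave 18 and 20 without and with TGF-beta, p53 siRNA without it 34, both siRNAs 5 and 7, and p53 siRNA added to PRMT1 siRNA 14 and 12. Its interactions with TGF-beta gave 21 for PRMT1 siRNA and 7 for p53 siRNA, and those of the 2 siRNAs 17 without and 4 with TGF-beta. In DESeq2 PRMT1 siRNA against control with TGF-beta gave 14, p53 siRNA with TGF-beta 4, both siRNAs without it 2, and p53 siRNA added to PRMT1 siRNA without it 2. Its interactions gave 14 and 7 with TGF-beta, and 1 and 11 for the 2 siRNAs without and with TGF-beta. With only the groups compared the TGF-beta response gave 24 under PRMT1 siRNA and 7 under p53 siRNA. There PRMT1 siRNA against control gave 14 and 23, p53 siRNA with TGF-beta 0, both siRNAs 0 and 8, p53 siRNA added to PRMT1 siRNA 10 and 13, PRMT1 siRNA added to p53 siRNA with TGF-beta 0, and the interaction of PRMT1 siRNA and TGF-beta 21.

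With 1 library left out, the TGF-beta response gave 9 to 10 calls under control siRNA, 3 to 6 under PRMT1 siRNA, 22 to 32 under p53 siRNA and 2 to 4 under both. Against control, PRMT1 siRNA gave 0 to 3 without and 0 to 1 with TGF-beta, p53 siRNA 0 to 5 and 0 to 24, and both siRNAs 0 to 0 and 0 to 2. PRMT1 siRNA added to p53 siRNA gave 11 to 13 and 0 to 25, and p53 siRNA added to PRMT1 siRNA 0 in every case. The interactions with TGF-beta gave 0 to 1 for PRMT1 siRNA and 0 to 29 for p53 siRNA, and those of the 2 siRNAs 0 without and 0 to 22 with TGF-beta.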

Other observations

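Genes of S phase, which make DNA and its precursors and act before the mitotic genes in the cycle, were counted in the same fits. Of 32 tested, TGF-beta raised 19 and lowered 0 under p53 siRNA, against 23.3% and 22% of all genes tested. It raised 4 and lowered 3 under PRMT1 siRNA, against 16.3% and 16.2%, shares below those of all genes. Under control siRNA it raised 14 and lowered 2, against 17.8% and 20.6%. Rrm2, a subunit of ribonucleotide reductase, rose with TGF-beta under p53 siRNA (0.94 ± 0.08, adjusted p = 1.75e-06), PRMT1 siRNA (0.47 ± 0.08, adjusted p = 0.000728) and control siRNA (0.87 ± 0.08, adjusted p = 4.06e-06). Without TGF-beta, 1 of the 32 was called lower under p53 siRNA, Rrm2 (-0.41 ± 0.08, adjusted p = 0.0221), and 0 higher, against 1.29% and 1.17% of all genes, with a median log2 change of -0.18. PRMT1 siRNA without TGF-beta raised 5, against 4.48% of all genes, led by Orc1 of the origin recognition complex (0.43 ± 0.09, adjusted p = 0.0142). PRMT1 siRNA on top of p53 siRNA raised 9, against 5.51%, led by the replication helicase factor Cdc45 (0.55 ± 0.08, adjusted p = 0.00213).

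Of 13 tested inhibitors of the cell cycle, TGF-beta raised 5 and lowered 3 under p53 siRNA, raised 3 and lowered 3 under PRMT1 siRNA, and raised 4 and lowered 3 under control siRNA, beside the same shares of all genes as above. It lowered Cdkn1b, the p27 inhibitor of Cdks, under p53 siRNA (-0.53 ± 0.10, adjusted p = 0.00107), and Cdkn1c, the p57 inhibitor, under PRMT1 siRNA (-1.23 ± 0.27, adjusted p = 0.00409) and control siRNA (-2.01 ± 0.30, adjusted p = 0.000244). It raised the stress gene Gadd45a under p53 siRNA (2.85 ± 0.15, adjusted p = 3.94e-08), PRMT1 siRNA (2.29 ± 0.15, adjusted p = 2.9e-07) and control siRNA (2.20 ± 0.15, adjusted p = 3.74e-07). Cdkn2a, the p16 and p19 Arf locus, rose with TGF-beta under p53 siRNA (2.64 ± 0.24, adjusted p = 3.41e-06), PRMT1 siRNA (2.57 ± 0.23, adjusted p = 4.36e-06) and control siRNA (1.84 ± 0.23, adjusted p = 5.8e-05). The p53 target Ccng1 was lower under p53 siRNA (-0.73 ± 0.08, adjusted p = 0.00124) and higher under PRMT1 siRNA (0.69 ± 0.08, adjusted p = 0.000444), both without TGF-beta. With TGF-beta Cdkn1a was at 23.8 ± 1.25 CPM under p53 siRNA, against 9.12 ± 0.120 CPM without it, at 105 ± 4.03 CPM under PRMT1 siRNA, against 82.8 ± 4.65 CPM, and at 55.4 ± 0.187 CPM under control siRNA, against 28.1 ± 1.30 CPM (SD, n = 2 each). It rose under p53 siRNA (1.38 ± 0.08, adjusted p = 5.48e-08), PRMT1 siRNA (0.34 ± 0.07, adjusted p = 0.00271) and control siRNA (0.98 ± 0.07, adjusted p = 6.05e-07). Of the 35 mitotic genes, 25 were called higher and 0 lower under p53 siRNA, 1 higher and 10 lower under PRMT1 siRNA, and 13 higher and 1 lower under control siRNA.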
